A study of Mus musculus with 12 samples.

Results

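The genes described here are Trh, which encodes the precursor of thyrotropin-releasing hormone (TRH), the TRH receptor gene Trhr, the TRH-degrading enzyme gene Trhde, and 7 further neuropeptide genes of the striatum, Nts, Cck, Cartpt, Crh, Vip, Adcyap1 and Grp. They were chosen by name, 10 of 52169 gene symbols in the deposited table of transcripts, and each is represented by the transcript with the highest mean level. Bulk RNA was sequenced from striatal punches of female C57BL/6J mice. All mice, those behind the unlesioned libraries included, had received desipramine (25 mg/kg) and then 3 µg of the neurotoxin 6-OHDA into the right medial forebrain bundle, which removes the dopamine axons of that hemisphere, and had recovered for 2 weeks. L-DOPA (10 mg/kg) with benserazide (7.5 mg/kg) was given once (acute) or daily for 9 days (chronic), and the striata were dissected 1 hour later. The 3 libraries of each of 4 groups came from the unlesioned and the lesioned striatum after acute and after chronic L-DOPA. All 4 groups had received L-DOPA, so a lesion effect is here a difference between hemispheres under the drug, and no group shows the lesion alone. Chronic against acute compares daily injections with a single one. The chronic striata were also taken later after the lesion, and that time and the repeated drug cannot be told apart. The acute and the chronic groups are separate mice. The series' design text counts 12 mice for the 12 libraries, while the paper's text treats the unlesioned side as the control within a mouse, so whether the libraries of a pair share a mouse is not settled, and p-values measure the spread between these libraries.

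TRH is a small peptide that is cut from a large precursor and is best known from the hypothalamus, where it drives the release of thyrotropin from the pituitary. Its N-terminus is closed by glutaminyl cyclases (Qpct, Qpctl), it acts on receptors that couple to phospholipase C (Trhr and, in rodents, Trhr2), and it is inactivated outside the cell by the ectopeptidase encoded by Trhde. Neurotensin (Nts) is made by medium spiny neurons and its mRNA is known to follow dopamine receptor signalling. CART peptide (Cartpt) is known as a transcript regulated by psychostimulants. Cholecystokinin (Cck) is abundant in cortical neurons, Vip marks a class of interneurons, and Crh, Adcyap1 (PACAP) and Grp encode peptides that act on G protein-coupled receptors.

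The sequences just upstream of Trh, Nts and Cartpt are shown because these were the members called as higher in lesioned than unlesioned striatum, in at least 1 treatment, by the fit without a replicate block. With the block Crh was called as higher too. Each is the 250 bases before the transcript start, on the coding strand, read from mm9, the build of the deposited table. The Trh window lies at chr6:92194643-92194892, the Nts window at chr10:101953068-101953317 and the Cartpt window at chr13:100670639-100670888, all on the minus strand. Capitals mark matches to the cAMP response element (CRE) TGACGTCA, to the AP-1 element TGANTCA or to the looser CRE-like octamer TGANNTCA, which was added after the sequences were seen.
Trh: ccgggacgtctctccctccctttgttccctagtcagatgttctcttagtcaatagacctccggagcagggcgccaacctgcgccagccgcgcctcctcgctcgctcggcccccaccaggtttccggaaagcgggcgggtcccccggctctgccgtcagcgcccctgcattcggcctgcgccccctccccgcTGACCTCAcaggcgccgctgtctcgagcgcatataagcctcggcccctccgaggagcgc
Nts: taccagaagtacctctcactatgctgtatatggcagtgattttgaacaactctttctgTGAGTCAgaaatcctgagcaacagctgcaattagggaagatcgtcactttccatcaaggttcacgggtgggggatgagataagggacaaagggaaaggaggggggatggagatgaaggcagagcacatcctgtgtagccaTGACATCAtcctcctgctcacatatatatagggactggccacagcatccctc
Cartpt: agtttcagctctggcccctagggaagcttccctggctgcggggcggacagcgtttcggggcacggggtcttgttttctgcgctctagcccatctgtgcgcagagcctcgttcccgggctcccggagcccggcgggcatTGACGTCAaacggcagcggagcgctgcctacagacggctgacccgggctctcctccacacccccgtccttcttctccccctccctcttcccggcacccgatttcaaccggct

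Counted from the transcript start, Trh carried TGACCTCA at positions -59 to -52, Nts carried TGACATCA at positions -52 to -45 and TGAGTCA at positions -192 to -186, and Cartpt carried TGACGTCA at positions -112 to -105. Among windows of the same length before 13895 genes, searched on both strands, 2.04% held TGACGTCA, 6.59% held TGANTCA and 10.6% held TGANNTCA. Over the 10 members these letters stood in 2 (Cartpt, Crh), 2 (Trhr, Nts) and 4 (Trh, Nts, Cartpt, Crh) windows. The core TGACG, which the CRE contains and which therefore overlaps it, was in 8 of 10 members and in 19.6% of all windows. The Nr4a element AAAGGTCA was in 0 of 10 members and in 1.13% of all windows. A match describes the letters only, and factor binding was not measured in these libraries.

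The libraries held between 87695043 and 173116525 counts over all transcripts, where a read counts on each transcript it overlaps. Levels are given as CPM (counts scaled by library size) after TMM normalization, and lesion and treatment effects as log2 fold changes with their standard error (SE) from edgeR's quasi-likelihood test, with p-values adjusted by Benjamini-Hochberg over all transcripts tested and a call at an adjusted p under 0.05. The medium spiny neuron marker Ppp1r1b lay between 368 and 635 CPM in every library. Some libraries stood apart in markers of neighbouring tissue. Replicate 2 of the chronic unlesioned group held 449 CPM of Ttr, a choroid plexus gene, against at most 1.51 CPM in any other library. The summed level of 6 cortical glutamatergic marker genes, Slc17a7 and Tbr1 among them, all detected in every group, ran from 13 to 30.2 CPM in acute unlesioned, from 1.8 to 15.7 CPM in acute lesioned, from 5.23 to 41.3 CPM in chronic unlesioned and from 1.64 to 22.5 CPM in chronic lesioned libraries. Replicate 1 was the highest library of both lesioned groups. Punches are bulk tissue, so a lower level can be fewer cells of a type or less RNA per cell, and these cannot be told apart.

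Of the 10 members, 8 passed the filter on low counts, while Adcyap1 and Grp did not in any comparison. After acute L-DOPA, 3 of the 8 differed between the striata: Nts and Cartpt were higher and Vip was lower in the lesioned striatum. In that comparison 12.9% of 129674 transcripts were called, 6.85% as higher and 6.02% as lower. After chronic L-DOPA, 2 of the 8 were called, Trh and Nts, both higher, against 12.0% of 127063 transcripts, 7.71% as higher and 4.33% as lower. Between chronic and acute lesioned striata only Trh was called among the 8, as higher, against 23.3% of 127463 transcripts, 12.1% as higher and 11.2% as lower. Between the unlesioned striata edgeR called 0 of the 8 members, with 1 (Nts) at an unadjusted p under 0.05 and 0 by DESeq2, against 2.61% of 129187 transcripts, 0.969% as higher and 1.64% as lower. The test of whether the lesion effect itself differed between chronic and acute L-DOPA called 1 of the 8, Trh, against 4.52% of 130867 transcripts, 3.22% as a rise and 1.30% as a fall. These shares count overlapping transcripts of a gene separately. With a single transcript per gene, edgeR called 3135 of 20336, 2663 of 19742, 4914 of 19790, 544 of 20290 and 1053 of 20664, in the order above. The median log2 fold change of the 8 was 0.25 in the acute and 0.63 in the chronic comparison of striata, beside 0.01 and -0.02 over all transcripts tested.

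The replicate numbers were taken to pair the libraries of the 2 hemispheres. The acute and the chronic groups are separate mice, so a block by number pairs nothing between them. Block values are therefore given for the lesion effects and their change. With the replicate number as a block, the chronic comparison called 6 of the 8 members in place of 2, and the additional calls were Cck and Vip as lower and Cartpt and Crh as higher. In the acute comparison the block added Cck as lower, for 4 of the 8. The block also raised the share of all transcripts called, to 21.6% in the chronic and 21.8% in the acute comparison. Comparisons of the 4 groups share libraries, so their values for a member are given side by side and are not independent.

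**Figure D1:**
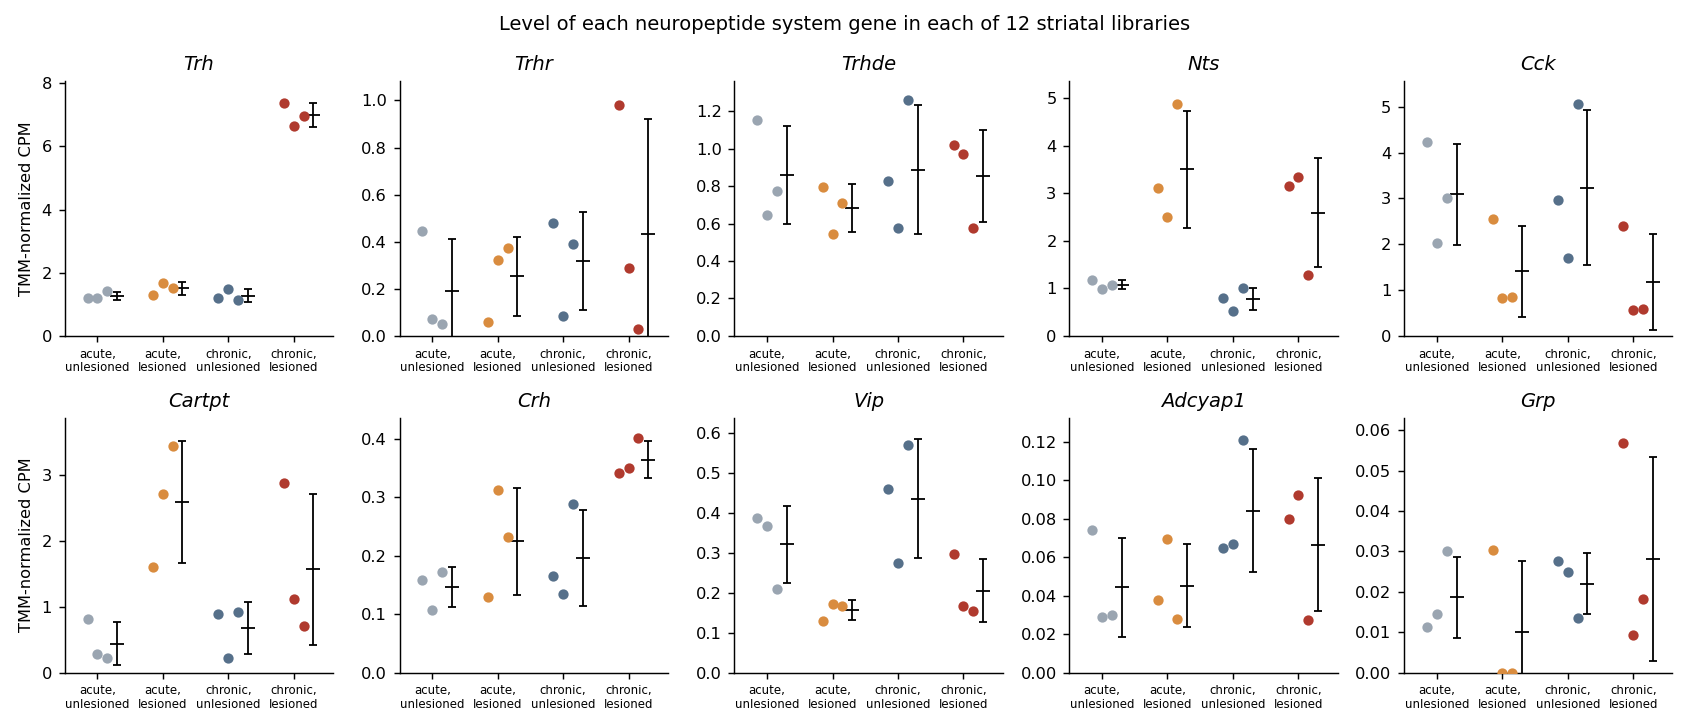
Level of each of the 10 genes in TMM-normalized CPM (vertical axes, each with its own range from 0) in the 12 libraries, by group (horizontal axes). Points are libraries, and the bar beside them is the mean with the SD, drawn only above 0. Trh stood at 6.63 to 7.37 CPM in the chronic lesioned libraries and at 1.13 to 1.69 CPM in all others.

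Trh (gene 22044, chr6:92192056-92194642, minus strand, 3 exons) was low in the unlesioned striatum and was high only in the lesioned striatum after repeated L-DOPA. Replicates 1, 2 and 3 read 1.19, 1.20 and 1.41 CPM in acute unlesioned striatum and 1.30, 1.69 and 1.52 CPM in acute lesioned striatum. They read 1.19, 1.5 and 1.13 CPM in chronic unlesioned striatum and 7.37, 6.63 and 6.97 CPM in chronic lesioned striatum. The lowest chronic lesioned library therefore lay far above the highest of the other 9, whose 3 groups overlapped one another. Means were 6.99 ± 0.368 (SD, n = 3) in chronic lesioned, 1.5 ± 0.197 in acute lesioned, 1.27 ± 0.201 in chronic unlesioned and 1.26 ± 0.125 in acute unlesioned striatum, and in that order the last 3 did not differ beyond their spread.

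After chronic L-DOPA Trh was 5.5-fold higher in lesioned than in unlesioned striatum (95% interval 4.56 to 6.63), a log2 fold change of 2.46 (SE 0.12, edgeR adjusted p = 4.45e-07). After acute L-DOPA the same difference was 0.24 on the log2 scale (SE 0.12, edgeR adjusted p = 0.224), with an interval from -0.03 to 0.51. The change of the lesion effect between the treatments was 2.22 (SE 0.18, edgeR adjusted p = 2.67e-06). Chronic exceeded acute lesioned striatum by 2.23 (SE 0.11, edgeR adjusted p = 5.67e-07), whereas the unlesioned striata differed by 0.01 (SE 0.14, edgeR adjusted p = 0.978).

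The Trh values moved little with the libraries that stood apart. Without the chronic unlesioned library rich in Ttr, the chronic lesion effect was 2.59 (edgeR adjusted p = 1.1e-07), and without the chronic lesioned library with the highest cortical marker level it was 2.42 (edgeR adjusted p = 7.04e-06). With the cortical marker score as a covariate, an alternative chosen after seeing the data, it was 2.41 (edgeR adjusted p = 1.48e-06). In the comparison of chronic with acute lesioned striatum, 4 of 4 oligodendrocyte, 3 of 4 microglia and 4 of 5 interneuron marker genes were lower, as were 2 of 4 astrocyte markers, while the choroid plexus markers Kl and Clic6 were higher. DESeq2 called 1 of 4 oligodendrocyte (Mbp) and 3 of 4 astrocyte markers there as lower. Of the 6 medium spiny neuron markers, Drd1a was higher and Drd2 and Adora2a were lower in that comparison. The part of these shifts in the Trh difference was not tested. In the chronic lesion effect, 0 of 4 oligodendrocyte and 0 of 4 microglia markers and 2 of 5 interneuron markers (Slc5a7 and Nos1, lower) were called, with 1 of 4 astrocyte markers (Gfap, higher), the choroid plexus marker Ttr (lower) and the D1 medium spiny neuron marker Drd1a (lower). Under the block, 2 of 4 oligodendrocyte (Mbp and Mobp) and 5 of 5 interneuron markers were called as lower there, 2 of 4 astrocyte markers (Gfap and Aqp4) as higher and 2 of 6 medium spiny neuron markers (Ppp1r1b and Drd1a) as lower, and 0 of 4 microglia markers were called. The thalamus or hypothalamus list of 6 genes was called in 0 of 3 tested in either of these comparisons, with 1 of 3 (Slc17a6) at an unadjusted p under 0.05 between the lesioned striata, where DESeq2 called it as higher, and none in the chronic lesion effect, where the replicate block called Slc17a6 as lower. Of its peptide genes, Hcrt held at most 2, Oxt at most 8, Pmch at most 10 and Avp at most 39 counts in a library. Its summed level ran from 0.72 to 2.48 CPM in chronic lesioned, from 0.893 to 5.08 CPM in chronic unlesioned, from 1.2 to 1.52 CPM in acute lesioned and from 1.01 to 1.14 CPM in acute unlesioned libraries.

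Trhr, the receptor (gene 22045, chr15:44027681-44067458, plus strand, 4 exons), was called in none of the 5 comparisons and varied more between replicates than between groups. Its replicates read 0.444, 0.072 and 0.0525 CPM in acute unlesioned and 0.0606, 0.324 and 0.373 CPM in acute lesioned striatum. After chronic L-DOPA they read 0.479, 0.0835 and 0.39 CPM in unlesioned and 0.979, 0.287 and 0.0273 CPM in lesioned striatum. The lowest of these is 3 counts and the highest 86 counts, and all 4 groups overlapped. The chronic lesion effect was 0.38 (SE 0.81, edgeR adjusted p = 0.817) with an interval from -1.41 to 2.18, so that changes of several fold in either direction were not detectable. It was -1.01 without chronic lesioned replicate 1, the library with the highest value, and -0.07 without the library rich in Ttr. With the cortical marker score as a covariate it was 1.78 (edgeR adjusted p = 0.077), which was not called.

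Trhde (gene 237553, chr10:113835877-114238426, minus strand, 19 exons), whose product cleaves TRH, was likewise called in none of the 5 comparisons. Its levels ran from 0.648 to 1.15 CPM in acute unlesioned, from 0.544 to 0.796 CPM in acute lesioned, from 0.576 to 1.26 CPM in chronic unlesioned and from 0.574 to 1.02 CPM in chronic lesioned libraries. The lesion effect was -0.32 (SE 0.21, edgeR adjusted p = 0.359) after acute and -0.08 (SE 0.29, edgeR adjusted p = 0.906) after chronic L-DOPA, with intervals from -0.79 to 0.15 and from -0.72 to 0.57. With the cortical marker score as a covariate both values turned positive, to 0.13 and 0.41, and neither was called.

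Among the other genes that act on TRH, Trhr2 ran from 0.809 to 1.5 CPM over all libraries and was called in none of the comparisons. Qpct, the secreted glutaminyl cyclase, was lower in chronic lesioned striatum. It read 2.52, 3.09 and 2.44 CPM there, against 3.32, 3.92 and 3.98 CPM in chronic unlesioned, 4.02, 4.15 and 4.59 CPM in acute lesioned and 4.32, 4.07 and 4.2 CPM in acute unlesioned striatum. All 3 chronic lesioned libraries were below the other 9. The difference was -0.48 (SE 0.12, edgeR adjusted p = 0.0298) from chronic unlesioned and -0.66 (SE 0.11, edgeR adjusted p = 0.0024) from acute lesioned striatum. The chronic lesion effect of Qpct was no longer called without chronic unlesioned replicate 2 or 3 or chronic lesioned replicate 1 or 3, at adjusted p between 0.0661 and 0.114 (edgeR), nor with the cortical covariate (edgeR adjusted p = 0.0508).

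Qpctl, the Golgi form of the cyclase, moved the other way between the lesioned striata. Its replicates read 3.78, 3.29 and 3.59 CPM in chronic lesioned against 2.30, 2.38 and 2.57 CPM in acute lesioned striatum, without overlap, a difference of 0.56 (SE 0.10, edgeR adjusted p = 0.00346). With the replicate block, the lesion effect itself changed between treatments for Qpct, by -0.50 (edgeR adjusted p = 0.0166), and for Qpctl, by 0.41 (edgeR adjusted p = 0.0305), which the fit without the block did not call. Pgpep1, an intracellular enzyme that removes the pyroglutamyl end, was higher in the acute lesioned striatum by 0.36 (SE 0.11, edgeR adjusted p = 0.049), at 2.39, 2.06 and 2.65 CPM against 1.71, 1.92 and 1.93 CPM. That call was lost by DESeq2 (adjusted p = 0.0651) and in 5 of the 6 fits that left out a library, all but that without acute lesioned replicate 2. It was also lost with a single transcript per gene, sums over transcripts, all 12 libraries in the fit and the cortical covariate, at adjusted p between 0.0541 and 0.188 (edgeR).

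**Figure D2:**
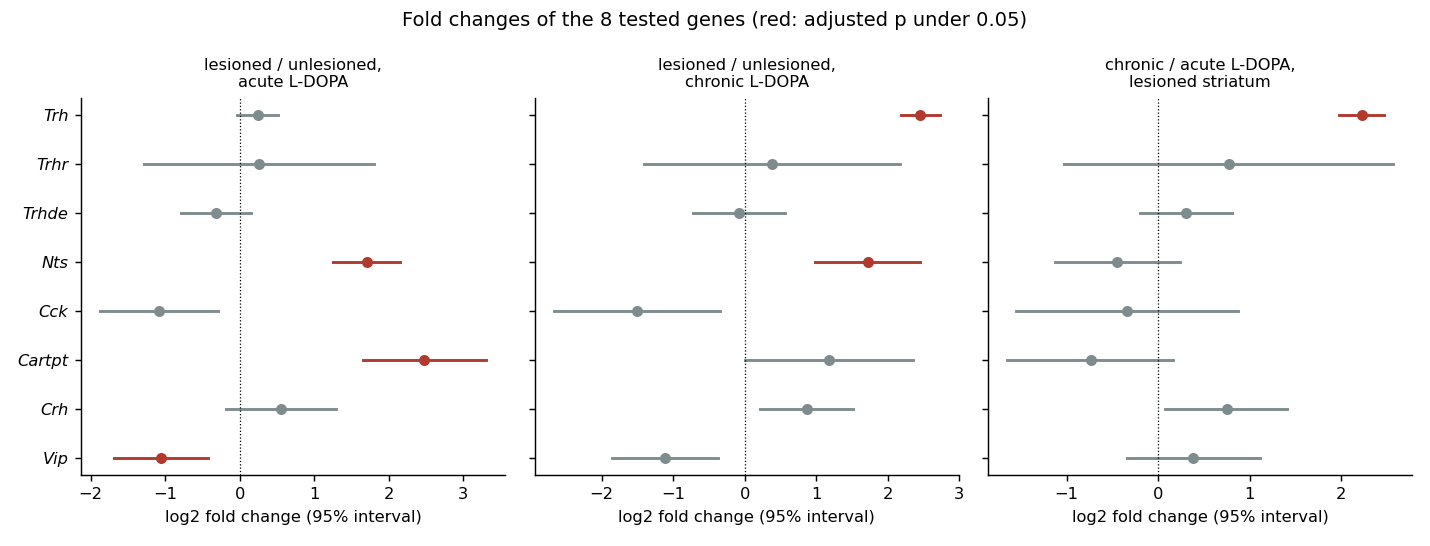
Log2 fold changes (horizontal axes, with 95% intervals as lines) of the 8 tested genes in 3 comparisons from edgeR. Red marks an adjusted p under 0.05. Trh was called in the chronic lesion effect (2.46) and in chronic against acute lesioned striatum (2.23), and Nts in both lesion effects (1.71 and 1.72).

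Nts (gene 67405, chr10:101944392-101953067, minus strand, 4 exons) was higher in the lesioned striatum after both treatments, by nearly the same amount. Replicates 1, 2 and 3 read 3.12, 2.51 and 4.89 CPM in acute lesioned against 1.17, 0.986 and 1.07 CPM in acute unlesioned striatum. After chronic L-DOPA they read 3.15, 3.35 and 1.28 CPM in lesioned against 0.801, 0.534 and 1.00 CPM in unlesioned striatum. Neither lesioned group overlapped its unlesioned group, although replicate 3 of the chronic lesioned group came close to it. The lesion effect was 1.71 (SE 0.20, edgeR adjusted p = 0.000213), or 3.26-fold, after acute L-DOPA and 1.72 (SE 0.34, edgeR adjusted p = 0.0079), or 3.29-fold, after chronic L-DOPA. The change between the treatments was 0.01 (SE 0.44, edgeR adjusted p = 0.993) with an interval from -0.92 to 0.95, so a change of up to about that size was not detectable. The chronic effect was 1.51 (edgeR adjusted p = 0.0151) without the library rich in Ttr.

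Of the neurotensin receptors, Ntsr1 was low and was lower in the acute lesioned striatum, at 0.159, 0.139 and 0.168 CPM against 0.313, 0.223 and 0.292 CPM without overlap. The difference was -0.82 (SE 0.25, edgeR adjusted p = 0.0481), and the call was lost in 5 of 6 fits that left out a library, all but that without acute unlesioned replicate 2, and by DESeq2 (adjusted p = 0.152). It was also lost with sums over transcripts, all 12 libraries in the fit and the cortical covariate, at adjusted p between 0.0546 and 0.236 (edgeR). With the replicate block Ntsr1 was called in the chronic comparison too, at -0.94 (edgeR adjusted p = 0.0322). Ntsr2, the receptor of astrocytes, was higher in the chronic lesioned striatum by 0.29 (SE 0.07, edgeR adjusted p = 0.0239), at 22, 22.9 and 22.8 CPM against 18.4, 18.8 and 18.1 CPM. The call was lost without chronic unlesioned replicate 1 or 3 or chronic lesioned replicate 1 or 3, at adjusted p between 0.0602 and 0.0872 (edgeR), with counts summed over transcripts (edgeR adjusted p = 0.154) and with the cortical covariate (edgeR adjusted p = 0.0894). With the block it was also called after acute L-DOPA, at 0.19 (edgeR adjusted p = 0.0329). Sort1, a sorting receptor that binds neurotensin, stayed between 78.3 and 97 CPM and was called in none of the comparisons.

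Cartpt (gene 27220, chr13:100668439-100670638, minus strand, 3 exons) was higher on the lesioned side after acute treatment. It read 1.6, 2.71 and 3.44 CPM in acute lesioned against 0.815, 0.281 and 0.217 CPM in acute unlesioned striatum, without overlap. The lesion effect was 2.48 (SE 0.38, edgeR adjusted p = 0.00128), or 5.59-fold with an interval from 3.16 to 9.89, the largest acute effect among the 8 members. Without acute unlesioned replicate 1, the highest of its group, the effect was 3.36 (edgeR adjusted p = 0.000157). After chronic L-DOPA its replicates read 2.87, 1.12 and 0.702 CPM in lesioned and 0.884, 0.225 and 0.921 CPM in unlesioned striatum, and the groups overlapped. In each same-numbered pair but number 3 the lesioned library was the higher.

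The chronic lesion effect of Cartpt was 1.18 (SE 0.53, edgeR adjusted p = 0.192), was called with the replicate block at 1.11 (edgeR adjusted p = 0.0426), and was 2.28 (edgeR adjusted p = 0.000156) with the cortical marker score as a covariate. Without chronic lesioned replicate 1 it fell to 0.42 (edgeR adjusted p = 0.656), and without the library rich in Ttr it was 0.76 (edgeR adjusted p = 0.326). The lesion effect changed between treatments by -1.33 (SE 0.78, edgeR adjusted p = 0.387), which was not called. Between the lesioned striata the difference was -0.74 (SE 0.41, edgeR adjusted p = 0.217), and -1.49 (edgeR adjusted p = 0.0173) without chronic lesioned replicate 1.

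Cck (gene 12424, chr9:121398942-121404807, minus strand, 3 exons) had lower values in the lesioned library of every same-numbered pair, but its groups overlapped, and whether it was called depended on the fit. Replicates 1, 2 and 3 read 4.23, 2.02 and 3.01 CPM in acute unlesioned and 2.55, 0.821 and 0.857 CPM in acute lesioned striatum. They read 2.96, 1.69 and 5.05 CPM in chronic unlesioned and 2.39, 0.555 and 0.583 CPM in chronic lesioned striatum. In both lesioned groups replicate 1 stood well above the other two libraries. The lesion effect was -1.08 (SE 0.36, edgeR adjusted p = 0.0706) after acute and -1.51 (SE 0.52, edgeR adjusted p = 0.0931) after chronic L-DOPA. With the replicate block it was called in both, at -1.17 (edgeR adjusted p = 0.000126) and at -1.57 (edgeR adjusted p = 0.00924). Among the other alternatives it was called in both with no filter on low counts (edgeR adjusted p = 0.0199 and 0.0478) and without replicate 1 of the lesioned group, at -1.88 after acute (edgeR adjusted p = 0.000746) and -2.51 after chronic L-DOPA (edgeR adjusted p = 0.00664). The acute effect was also called without acute unlesioned replicate 2 (edgeR adjusted p = 0.0403), and the chronic effect without the library rich in Ttr at -1.82 (edgeR adjusted p = 0.0285).

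The cortical marker genes moved with Cck across libraries. Their summed level in replicates 1, 2 and 3 was 30.2, 13.7 and 13 CPM in acute unlesioned and 15.7, 2.27 and 1.8 CPM in acute lesioned striatum, and 24.5, 5.23 and 41.3 CPM in chronic unlesioned and 22.5, 1.8 and 1.64 CPM in chronic lesioned striatum. Their own lesion effects had a median of -1.39 over 6 genes after acute and of -1.63 over the 5 genes tested after chronic L-DOPA, and only Neurod6 after acute L-DOPA was called. Under the block 6 of 6 were called as lower after acute and 4 of 5 after chronic L-DOPA. With the marker score as a covariate the lesion effect of Cck was -0.16 (SE 0.19, edgeR adjusted p = 0.643) after acute and -0.58 (SE 0.20, edgeR adjusted p = 0.107) after chronic L-DOPA. The same covariate gave a called difference of -0.45 (edgeR adjusted p = 0.036) between chronic and acute lesioned striatum, where the fit without it gave -0.34 (edgeR adjusted p = 0.693). The summed marker level was lower in the lesioned library of every same-numbered pair, so covariate and lesion overlap in the fits of the lesion effect. The part of cortical tissue in the Cck difference was not tested.

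Cckbr, the main cholecystokinin receptor of the brain, was lower in the chronic lesioned striatum, at 0.797, 0.592 and 0.31 CPM against 1.44, 0.826 and 2.02 CPM without overlap. The difference was -1.36 (SE 0.35, edgeR adjusted p = 0.0316), and it was -0.68 (edgeR adjusted p = 0.123) with the cortical marker score as a covariate. The call was lost without chronic unlesioned replicate 1 or 3 or chronic lesioned replicate 3, at adjusted p between 0.0768 and 0.138 (edgeR), and with counts summed over transcripts (edgeR adjusted p = 0.064). With the replicate block Cckbr was lower after acute L-DOPA too, at -0.56 (edgeR adjusted p = 0.0137). Cckar lay between 1 and 45 counts per library, was too low to be tested in the chronic comparison and was not called elsewhere.

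**Figure D3:**
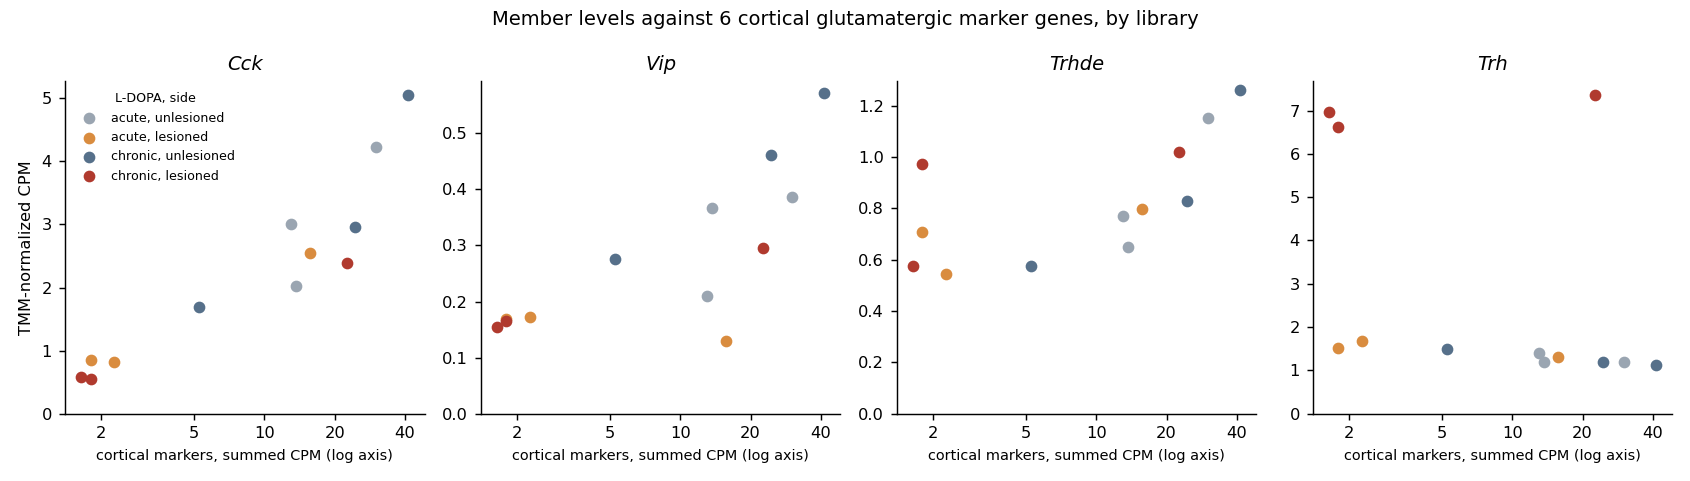
Level of Cck, Vip, Trhde and Trh in TMM-normalized CPM (vertical axes) against the summed CPM of 6 cortical glutamatergic marker genes (horizontal axes, log scale), 1 point per library, coloured by group. The 4 libraries with the lowest Cck, from 0.555 to 0.857 CPM, are the lesioned libraries with 1.64 to 2.27 CPM of the markers. The 3 chronic lesioned libraries, with 22.5, 1.8 and 1.64 CPM of the markers, hold Trh at 7.37, 6.63 and 6.97 CPM.

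Vip (gene 22353, chr10:4698927-4707323, minus strand, 7 exons) was lower on the lesioned side after acute treatment. It read 0.129, 0.173 and 0.168 CPM in acute lesioned against 0.387, 0.367 and 0.21 CPM in acute unlesioned striatum, without overlap, at 15 to 68 counts per library. The difference was -1.06 (SE 0.29, edgeR adjusted p = 0.0323), and 5 of 6 fits that left out a library, all but that without acute unlesioned replicate 3, no longer called it, nor did the fit to all 12 libraries (edgeR adjusted p = 0.0702). After chronic L-DOPA the replicates read 0.296, 0.166 and 0.155 CPM in lesioned and 0.461, 0.275 and 0.571 CPM in unlesioned striatum, with an overlap between lesioned replicate 1 and unlesioned replicate 2. The chronic effect was -1.11 (SE 0.34, edgeR adjusted p = 0.0587), and it was called with the replicate block at -1.10 (edgeR adjusted p = 0.0149) without the library rich in Ttr at -1.36 (edgeR adjusted p = 0.0141), without chronic lesioned replicate 1 at -1.44 (edgeR adjusted p = 0.0416) and by DESeq2 (adjusted p = 0.0444). With the cortical marker score as a covariate the effects were -0.98 (edgeR adjusted p = 0.138) after acute and -0.51 (edgeR adjusted p = 0.29) after chronic L-DOPA.

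Vipr1, a receptor that VIP and PACAP share, was higher in the chronic lesioned striatum. Its chronic lesion effect was opposite in direction to that of Vip (-1.11, edgeR adjusted p = 0.0587). Between the lesioned striata Vip moved the same way as Vipr1, by 0.38 (edgeR adjusted p = 0.433). Vipr1 replicates read 12.4, 9.00 and 11.2 CPM in chronic lesioned, against 5.29, 3.97 and 5.45 CPM in chronic unlesioned, 5.32, 4.88 and 5.37 CPM in acute lesioned and 4.72, 4.44 and 4.97 CPM in acute unlesioned striatum. All 3 chronic lesioned libraries were above the other 9. The chronic lesion effect was 1.15 (SE 0.14, edgeR adjusted p = 0.00052), or 2.21-fold, chronic exceeded acute lesioned striatum by 1.06 (SE 0.11, edgeR adjusted p = 0.00014), and the lesion effect changed between treatments by 1.00 (SE 0.17, edgeR adjusted p = 0.00352). Vipr1 was the only gene besides Trh, among the members and the 16 related genes, whose lesion effect was called as changed with repeated L-DOPA in the edgeR fit without a block, while DESeq2 called Qpct too.

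Adcyap1 (gene 11516, chr17:93598762-93604831, plus strand, 5 exons), which encodes PACAP, was near the limit of these libraries at 3 to 18 counts, or 0.0273 to 0.121 CPM, and the groups overlapped. Its receptor gene Adcyap1r1 was far more abundant, between 19.9 and 31.8 CPM, and was called in none of the comparisons. Vipr2 lay between 7 and 26 counts per library and was not called either.

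Crh (gene 12918, chr3:19593401-19595396, minus strand, 2 exons), which encodes corticotropin-releasing hormone, had its highest values in the chronic lesioned striatum. It read 0.342, 0.351 and 0.401 CPM there, against 0.166, 0.134 and 0.289 CPM in chronic unlesioned, 0.129, 0.312 and 0.233 CPM in acute lesioned and 0.159, 0.108 and 0.172 CPM in acute unlesioned striatum. All 3 chronic lesioned libraries were above the other 9, at 30 to 44 counts each. The chronic lesion effect was 0.87 (SE 0.30, edgeR adjusted p = 0.0908), and with the replicate block it was called at 0.90 (edgeR adjusted p = 0.0275). Without the library rich in Ttr it was 0.65 (edgeR adjusted p = 0.2), and without chronic unlesioned replicate 3 it was called at 1.29 (edgeR adjusted p = 0.0306). Chronic differed from acute lesioned striatum by 0.75 (SE 0.30, edgeR adjusted p = 0.0974), which was not called.

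Crhbp, a secreted protein that binds the hormone, was higher in chronic than in acute lesioned striatum. It read 0.831, 0.897 and 0.82 CPM against 0.515, 0.486 and 0.494 CPM, without overlap, a difference of 0.77 (SE 0.15, edgeR adjusted p = 0.00563). Crhr1, the main receptor, was called with the replicate block in both lesion effects, at 0.32 (edgeR adjusted p = 0.0187) after acute and 0.50 (edgeR adjusted p = 0.00654) after chronic L-DOPA, and not without it. Crhr2 lay between 0.0864 and 0.409 CPM and was not called. Grp (gene 225642, chr18:66033148-66046233, plus strand, 3 exons), which encodes gastrin-releasing peptide, held 0 to 5 counts per library, at or near the floor of 3 counts, and its receptor gene Grpr held 1 to 8 counts, so no fold change is given for either.

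Over the 16 related genes, 2 of 15 tested were called in the acute comparison (1 higher, 1 lower), 4 of 14 in the chronic comparison (2 higher, 2 lower) and 4 of 15 between the lesioned striata (3 higher, 1 lower). Between the unlesioned striata edgeR called 0 of 15, with 6 at an unadjusted p under 0.05 and 0 called by DESeq2, and 1 of 15 was called for the change of the lesion effect. These shares stand beside the 12.9%, 12.0%, 23.3%, 2.61% and 4.52% of all transcripts given above. Under the block the counts were 5 of 15 in the acute comparison, 6 of 14 in the chronic comparison and 3 of 15 for the change of the lesion effect. The shares of all transcripts there were 21.8%, 21.6% and 12.1%.

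**Figure D4:**
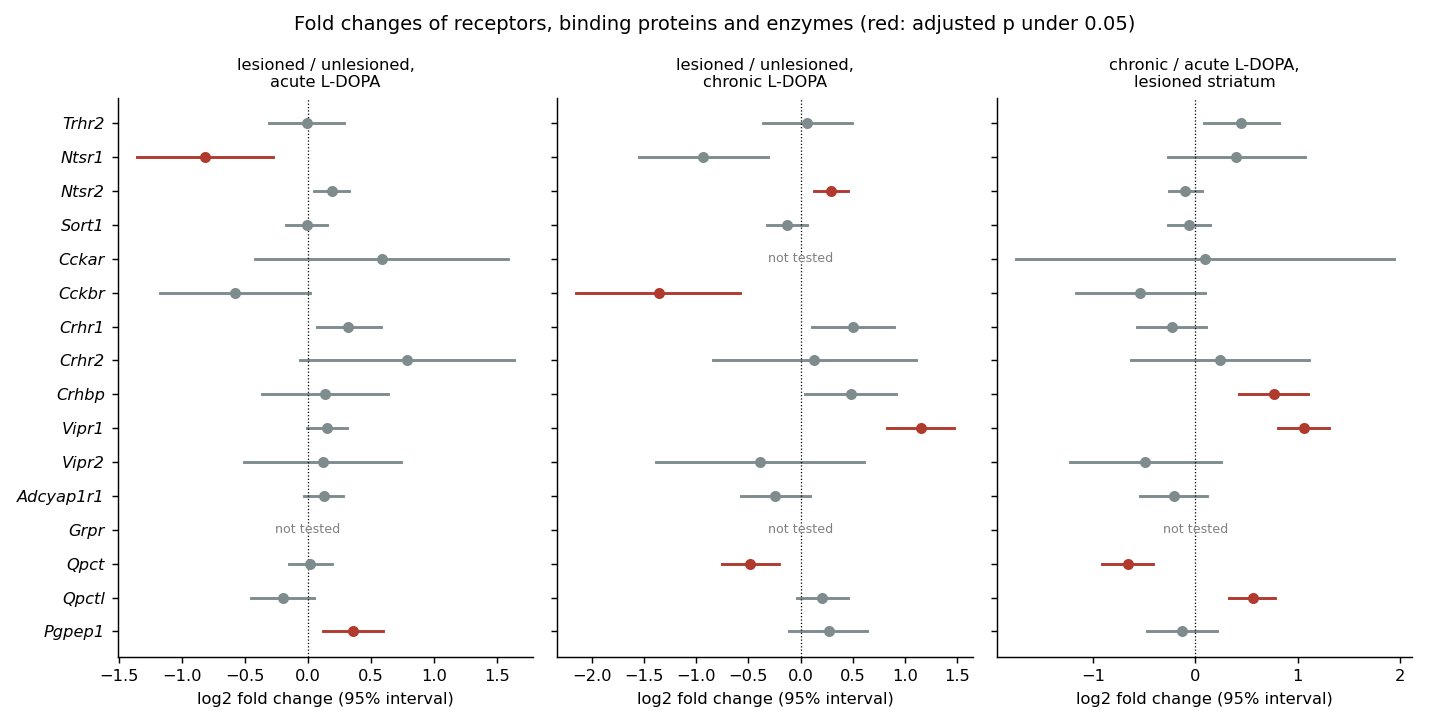
Log2 fold changes (horizontal axes, with 95% intervals as lines) of 16 receptor, binding protein and enzyme genes in 3 comparisons from edgeR. Red marks an adjusted p under 0.05. Vipr1 was called in the chronic lesion effect (1.15) and in chronic against acute lesioned striatum (1.06), and Qpct was lower in both (-0.48 and -0.66).

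Compared per length, as mean CPM per kilobase of transcript over all 12 libraries, Cck had the highest level of the members (3.25), followed by Trh (2), Nts (1.67) and Cartpt (1.5). Vip (0.183), Crh (0.177), Trhde (0.144) and Trhr (0.0749) lay well below Cartpt, and Adcyap1 (0.0286) and Grp (0.0228) were the lowest. By group the order of the first genes differed. In chronic lesioned striatum Trh led with a mean of 5.06 CPM per kilobase against 2.18 for Nts, 1.79 for Cartpt and 1.71 for Cck. In acute lesioned striatum Cartpt (2.95) and Nts (2.94) led, above Cck (2.05) and Trh (1.09). Cck led in both unlesioned groups, with 4.72 CPM per kilobase against 0.922 for Trh after chronic and 4.5 against 0.916 after acute L-DOPA.

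The genes with a pattern most like that of Trh were ranked by Pearson r of log2(CPM + 0.5) over the 12 libraries, among 11957 gene symbols with a mean of at least 1 CPM. The first 5 were Trim62 (r = 0.994), Fam43a (r = 0.993), Ywhab (r = 0.991), Fst (r = 0.991) and Tgfb1 (r = 0.991). The points of such an r share libraries and groups, and the genes were picked for it, so no test is given. Like Trh, all 5 were highest in the 3 chronic lesioned libraries, without overlap with the other 9.

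They differed in the ratio of the group means. Fst, which encodes the activin-binding protein follistatin, had a mean of 9.22 ± 0.342 CPM (SD, n = 3) in chronic lesioned against 0.938 ± 0.0967 CPM in chronic unlesioned striatum. Tgfb1, a cytokine gene, stood at 7.33 ± 0.19 against 0.945 ± 0.167 CPM, and Fam43a at 19.8 ± 2.35 against 3.25 ± 0.341 CPM. The ubiquitin ligase family gene Trim62 stood at 10.7 ± 0.365 against 5.04 ± 0.198 CPM. The ratio was smallest in Ywhab, which encodes a 14-3-3 protein, at 148 ± 3.54 against 102 ± 3.19 CPM. Their transcripts overlap no transcript of another gene symbol in the table.

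**Figure D5:**
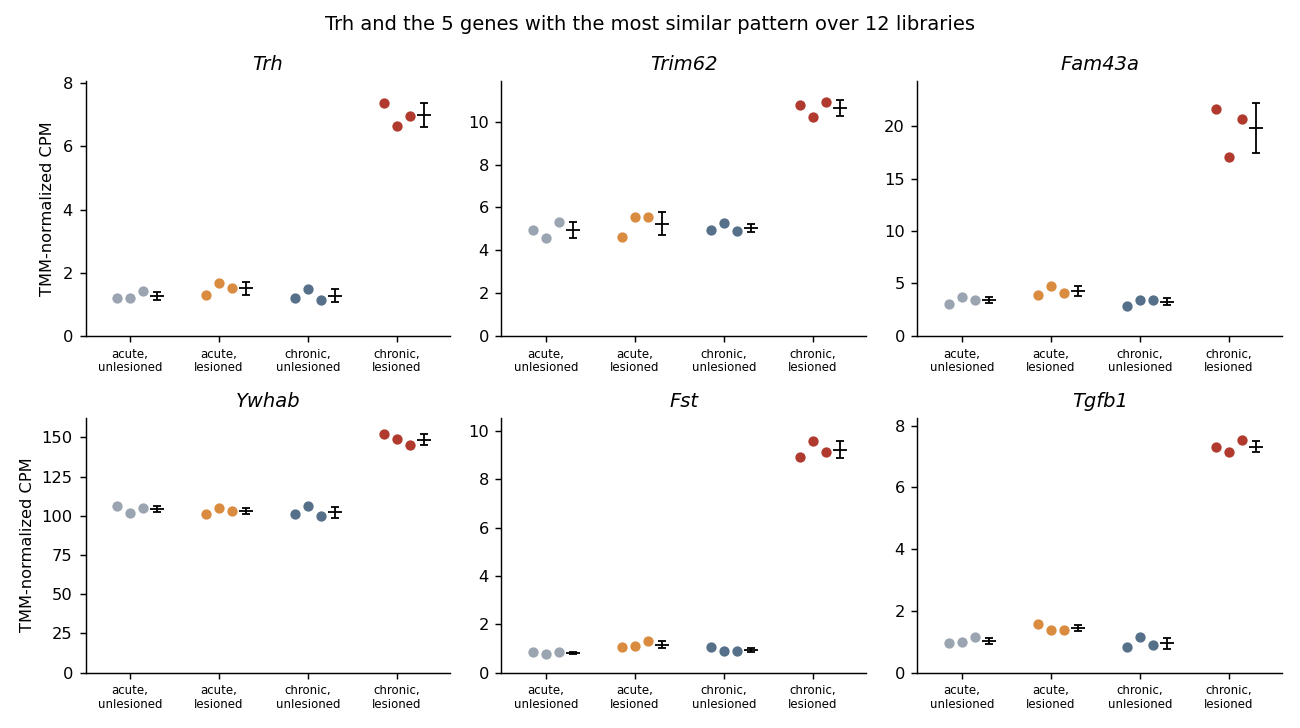
Level of Trh and of the 5 genes with the highest correlation to it, in TMM-normalized CPM (vertical axes from 0, each with its own range), in the 12 libraries by group (horizontal axes). Points are libraries, and the bar beside them is the mean with the SD. In every panel the 3 chronic lesioned libraries lie above the other 9, from 145 to 152 CPM for Ywhab and from 8.94 to 9.6 CPM for Fst.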

How the data were processed

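Per the labels, RNA of 3 striatal punches was sequenced on an Illumina Genome Analyzer II from TruSeq libraries. The paper's section on gene expression, which describes its qPCR, names a single punch per hemisphere, and which holds for these libraries is not settled. Per the study's methods, the authors mapped reads to mm9 on the Genomatix Mining Station and deposited raw counts per transcript. A read is counted on every transcript it overlaps, and the strand and multi-mapping settings are not given in the sources used here. The 12 count columns were used. 48 further per-sample columns were not used, nor were 3 tables with the authors' DESeq fold changes and p-values. 296 of 189660 transcripts carry no symbol and hold 0.0485% of counts.

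Counts were filtered by filterByExpr, TMM-normalized and tested with edgeR 4.0.16 (R 4.3.3), quasi-likelihood test, Benjamini-Hochberg adjusted over all transcripts tested, first on simulated data. A fit of each comparison used only its own groups, and the test of the changed lesion effect used all 4. Members and lists were chosen with earlier results of these data known. The rule for named genes takes all members, the 16 related genes and the 5 genes most correlated with Trh. Genes of 9 cell type marker lists are also named, chosen after their values were seen. Alternatives were DESeq2 1.42.0, its size factors, no filter, sums over transcripts, a single transcript per gene, all 12 libraries in a fit, a replicate block, a threshold of 0.01, plain CPM for levels, each library left out and, added after seeing the data, a cortical marker covariate. Of the cortical marker genes, 1 is not reported here by name.

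Replicate numbers come from the labels. Deviations from the group means of same-numbered libraries correlated at 0.478, 0.444 and 0.390 in acute and 0.519, 0.566 and 0.153 in chronic mice over 12794 genes. Differently numbered libraries correlated between -0.516 and 0.155, the highest being chronic unlesioned 3 with lesioned 1, as high as the same-numbered pair 3. Every same-numbered correlation exceeded 0.1, and on that rule the numbers were taken to pair the libraries. The differently numbered pair at 0.155 passed it too, so the rule does not settle the pairing. No 2 libraries of a group agreed within sampling noise (chi-square per degree of freedom 5.41 to 19.7). Intervals are 95%, and the floor of 3 counts, for counting error only, is 0.0171 to 0.0347 CPM. Sequences were read from the mm9 genome.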

Additional observations from a re-analysis of the deposited data

Results flagged for a closer look

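The lesion effect of Trh differed between the treatments by 2.22 on the log2 scale (SE 0.18, edgeR's quasi-likelihood interaction test, adjusted p = 2.67e-06), with all 3 chronic lesioned libraries above the other 9. The lesion effect of Vipr1 differed by 1.00 (SE 0.17, edgeR adjusted p = 0.00352), again with all 3 chronic lesioned libraries above the other 9. In the same test the lesion effects of the interneuron markers Slc5a7 and Nos1, 2 of 5 on that list, were called as more negative after chronic L-DOPA. That of the D1 medium spiny neuron marker Drd1a was called as less negative. Its means in lesioned against unlesioned striatum were 13.5 against 66.6 CPM after acute and 28 against 70.1 CPM after chronic L-DOPA. With the replicate block the lesion effects of 4 of 5 interneuron, 3 of 4 oligodendrocyte, 2 of 4 choroid plexus and 2 of 3 thalamus or hypothalamus markers were called as a fall. Those of Drd1a, Rgs9 and Gfap were called as a rise. The part of these markers in either difference was not tested.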

How the results depend on the processing

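Trh was called in every alternative of the chronic lesion effect (2.37 to 2.59), of chronic against acute lesioned striatum (2.13 to 2.32) and of the changed lesion effect (2.12 to 2.36), and Nts in every alternative of both lesion effects (1.39 to 1.88 and 1.5 to 2.13). The acute effect of Cartpt was called in all (2.17 to 3.36). The number of members called after chronic L-DOPA, 2, was 4 with no filter on low counts, 6 with the replicate block, and 3 with DESeq2, with all 12 libraries in the fit (Vip added in both) and with the cortical covariate (Cartpt added), and between the lesioned striata, 1, it was 2 with the cortical covariate. Leaving out a library gave 2 to 3 members called for the acute effect, 2 to 4 for the chronic effect, 1 to 2 between lesioned and 0 to 0 between unlesioned striata, and 1 to 1 for the changed effect. The block changed no member's call beyond those given beside the results.

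None of the values that changed sign was called, and the cause was not tested. With the covariate these were Trhde at 0.13 (acute), 0.41 (chronic) and -0.04 (unlesioned striata), Cck at -0.09 (unlesioned striata), and, for the changed effect, Trhr at -0.24 and Vip at 0.00. For the changed effect, Trhr was -0.09 with sums over transcripts and -0.17 with the replicate block, and Nts was -0.02 with the replicate block. With a library left out, Trhr ran from -0.22 to 1.95 (acute), from -1.01 to 0.98 (chronic), from -0.63 to 1.36 (lesioned striata) and from -1.55 to 0.70 (changed effect). Trhde ran from -0.31 to 0.28 (chronic), from -0.30 to 0.35 (unlesioned striata) and from -0.04 to 0.61 (changed effect). Cck ran from -1.34 to 0.45 (lesioned striata), from -0.42 to 0.38 (unlesioned striata) and from -1.43 to 0.36 (changed effect). Trh ran from -0.13 to 0.10 between unlesioned striata. For the changed effect Nts ran from -0.22 to 0.34, Crh from -0.01 to 0.73 and Vip from -0.38 to 0.21. Depth limits Adcyap1 and Grp, which could not be tested, while Trhr varied between replicates, from 3 to 86 counts within the chronic lesioned group.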
